A study of Mus musculus with 6 samples.

Results

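The genes described here encode the proteins of the cytosolic ribosome, and their RNA was measured in skull-roof bone (calvaria) from mice aged 10 days. A probe set is the group of short oligonucleotides that an Affymetrix array uses to read 1 transcript. Genes were taken where a probe set's annotation gave exactly 1 symbol of the form Rpl or Rps and a number, with Rplp0, Rplp2 and Rpsa, and without S6 kinases and pseudogenes. Rps3a1 was included as the current symbol of Rps3a. This gave 47 genes, 24 of the large subunit and 23 of the small subunit, among 18193 genes named on the array, and each gene was represented by its brightest probe set. Other ribosomal protein genes, Rpl3, Rpl5, Rpl10, Rplp1 and Rps27a among them, had no probe set of their own symbol alone and were not analysed as genes.

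The study set transgenic mice that express a Col10a1-13del transgene, called 13del-tg and labelled as having bone overgrowth, against wild-type littermates, called control here. RNA came from cryosectioned parietal bones, and 3 biological replicates per genotype were labelled, without stating sex, transgene promoter or whether animals were pooled. The columns deposited as control 1 and 13del-tg 1 held the same value for 45101 of 45101 probe sets, whereas other pairs of arrays shared 0.115% to 0.213% of values. This array, called the shared array, is shown apart, and every difference below is between 13del-tg 2 and 3 and controls 2 and 3. As a check of the labels, the Col10a1 intensity was 149.8 and 158.2 in controls 2 and 3, 15688.7 and 11584.4 in 13del-tg 2 and 3, and 152.2 on the shared array. Of 10 osteoblast markers listed for this tissue 7 were measured, namely Col1a1, Col1a2, Ibsp, Ifitm5, Dmp1, Sp7 and Alpl. Their summed intensity lay between 132352 and 170563 on the 4 compared arrays and at 95231 on the shared array. The samples were whole bone pieces, so fewer cells of a type and less RNA per cell cannot be told apart.

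A ribosome joins a small subunit, which binds the messenger RNA and reads its codons, to a large subunit, which forms the peptide bonds. Ribosomal proteins coat and stabilise the ribosomal RNA of both, and a stalk of acidic P proteins on the large subunit recruits translation factors. Their mRNAs are among the most abundant of growing cells, and most carry a terminal oligopyrimidine (TOP) start, a C followed by an unbroken stretch of C and T letters in the gene, through which mTORC1 and the RNA-binding protein LARP1 adjust their translation. Bone-forming osteoblasts make large amounts of secreted matrix protein and depend on a high capacity for translation.

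The start regions of 6 members are shown because the values below turn on these genes. They also show where pyrimidine runs lie at or near the annotated start, with none of at least 8 letters in Rpl3l. Each runs 5′ to 3′ on the gene's strand from 60 bases before to 30 bases after the RefSeq start of GRCm38.p6, and capitals mark the longest run of C or T of at least 8 letters that touches the stretch from 10 bases before to 25 bases after that start.
Rpl11, chr4:136053364-136053453, minus strand: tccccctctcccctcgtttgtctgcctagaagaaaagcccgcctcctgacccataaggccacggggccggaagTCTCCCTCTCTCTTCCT
Rpl38, chr11:114668520-114668609, plus strand: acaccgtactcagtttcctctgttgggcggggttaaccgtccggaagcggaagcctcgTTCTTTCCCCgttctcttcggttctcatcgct
Rps27, chr3:90213619-90213708, minus strand: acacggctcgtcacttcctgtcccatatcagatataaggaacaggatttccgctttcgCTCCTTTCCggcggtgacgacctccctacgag
Rps6, chr4:86857338-86857427, minus strand: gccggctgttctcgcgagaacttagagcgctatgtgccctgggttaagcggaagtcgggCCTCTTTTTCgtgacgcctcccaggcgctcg
Rps27l, chr9:66946026-66946115, plus strand: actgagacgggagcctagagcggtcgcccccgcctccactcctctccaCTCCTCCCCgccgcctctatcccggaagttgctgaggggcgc
Rpl3l, chr17:24727766-24727855, plus strand: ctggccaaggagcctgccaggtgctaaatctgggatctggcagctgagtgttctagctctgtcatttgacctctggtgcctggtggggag

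In Rpl38, Rps27 and Rps6 the run began 1 or 2 bases before the annotated start and was 9 or 10 letters long, and in Rpl11 a run began 13 bases after the first transcribed base and filled the last 17 letters printed. In Rps27l a run of 9 letters began 12 bases before the annotated start and ended before reaching it. The longest run in Rpl3l was 5 letters. RefSeq windows from 250 bases before to 50 bases after the start were found for 41 of the 47 genes, 49 windows in all, since some genes have several starts. A pyrimidine run of at least 8 letters touched the start region in 24 of the 49 (49%), against 18.3% of all 32851 windows in the table. The other member windows, like that of Rpl3l, had no such run. On either strand of the whole window, CCGGAAG, the core of ETS and GABP sites, was present in 42.9% of member windows and 8.86% of all. TCTCGCGA was present in 20.4% and 0.995%, AAGATGGC, found in YY1 sites, in 6.12% and 2.75%, and CTTTCC, which can overlap a pyrimidine run, in 44.9% and 26.6%. Of the 6 sequences printed, CCGGAAG lies in those of Rpl11, Rpl38 and Rps27l, and TCTCGCGA in that of Rps6. These are matches of letters and were not tested as binding sites. The 47 genes lie on 17 chromosomes, and the RefSeq table lists 324 ribosomal protein pseudogenes, a family whose copies can share probes with the genes: of the 101 member probe sets 40 carry the suffix _x_at and 3 the suffix _s_at, which Affymetrix gives to probe sets that may read several transcripts.

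Nearly the whole family was brighter on the 13del-tg arrays, by a small amount. Of the 47 genes 46 passed the filter on low signal, the exception being Rps16, whose 1 probe set read 1.2 to 32.3 on all arrays. The difference, 13del-tg minus control on the log2(intensity + 16) scale, was positive for 45 of the 46 and negative for Rps4l, with a median of 0.23 and a range of -0.031 to 1.40. This direction depended on how the arrays were put on one scale: 46 of 46 were positive with arrays centred on their medians, 38 with arrays levelled on other bright genes and 32 after quantile normalization, which gives every array the same distribution of signal. Over all 12859 genes tested the median was -0.074, and 41.2% of differences were positive. The 24 large subunit genes had a median of 0.21 and the 22 measured small subunit genes 0.26. No member passed an adjusted p of 0.05 by limma in either direction, where 0.0156% of all genes passed as higher and 0.0467% as lower. At an unadjusted limma p under 0.05, 2 members were higher and 0 lower (4.35% and 0%), where 1.49% of all genes were higher and 5.31% lower. Both 13del-tg arrays lay above both controls for 24 members (52.2%) and below both for 0, against 13.4% and 26.3% of all genes. Most members are bright, and these shares were not computed for other bright genes. Of those in the brightest 2%, 83.4% had a positive difference.

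The shift was unequal between the 2 13del-tg arrays. Against the mean of controls 2 and 3, the median over the members was -0.047 in control 2, 0.047 in control 3, 0.10 in 13del-tg 2 and 0.39 in 13del-tg 3. On the shared array it was -0.50, below both groups. 13del-tg 3 was the highest of the 5 arrays for 38 of the 46 genes and the shared array was the lowest for 38. 13del-tg 2 exceeded both controls for 26 genes and 13del-tg 3 for 40. The gap between the 2 13del-tg arrays was thus larger than the distance of 13del-tg 2 from the controls. How often each array was highest, lowest or above both controls was not counted over all genes. The 223 other genes of the brightest 2% also had their highest median on 13del-tg 3 (0.23) and their lowest on the shared array (-0.31). Without 13del-tg 2 the member median was 0.39 and 13 members were higher at an unadjusted p under 0.05, as were 317 of all 12859 genes. Without 13del-tg 3 it was 0.10. Counting the shared array as a control gave 0.40, with 44 genes positive and 2 negative, and counting it as a 13del-tg sample gave -0.0026, with 22 positive and 24 negative, although its Col10a1 intensity of 152.2 lay between those of controls 2 and 3. The summed intensity of the 46 genes made up 4.64% and 5.16% of that of all genes tested in controls 2 and 3, 5.05% and 5.88% in 13del-tg 2 and 3, and 3.61% on the shared array. By this share, control 3 lay above 13del-tg 2, so the groups overlapped.

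**Figure D1:**
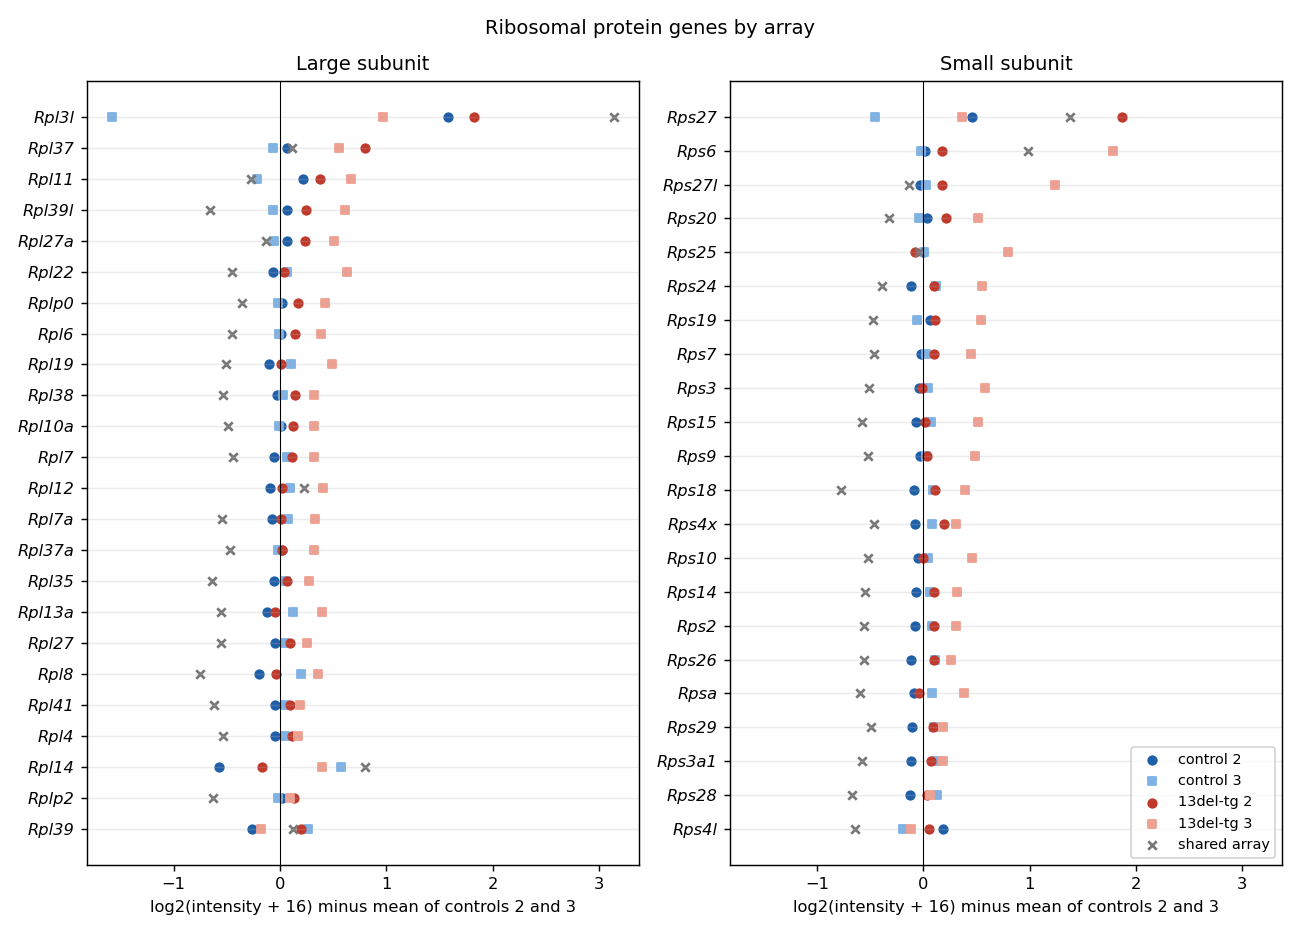
On the deposited scale, each row is 1 measured ribosomal protein gene and each mark 1 array, placed by its log2(intensity + 16) minus the mean of controls 2 and 3, with large subunit genes on the left and small subunit genes on the right, ordered by their difference. 13del-tg 3 is the highest mark in 38 of 46 rows and the shared array the lowest in 38, while 13del-tg 2 lies near the controls. The same counts were not made over all genes.

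Most members read at the top of the array's range, and other bright genes shifted too. In all, 34 of the 46 lay among the brightest 2% of genes by mean signal, and all 34 had a positive difference, from 0.051 to 0.52 with a median of 0.22. The 223 other genes of that band had a median of 0.17 and 83.4% of them were positive. Outside the family the median was lower in each dimmer band: 0.13 between the 95th and 98th percentile, 0.092 between the 90th and 95th, 0.018 between the 75th and 90th, and -0.19 in the dimmer 50% of genes. The 34 bright members had medians of 0.095 on 13del-tg 2, 0.34 on 13del-tg 3 and -0.53 on the shared array, and the 223 others had 0.11, 0.23 and -0.31. Quantile normalization left the 34 with a median of 0.021, 21 of them positive, and all 46 with a median of 0.055. Of the 12 dimmer members under that normalization, 3 of 3 were positive below the 50th percentile, 5 of 5 between the 50th and 75th, 1 of 2 between the 75th and 90th and 2 of 2 between the 95th and 98th. Probe sets naming a ribosomal protein were 134 of the brightest 451, the top 1% (29.7%), so that normalization takes part of its scale from the family itself. With each array levelled on 643 bright probe sets of other named genes, a setting chosen after seeing the data, the member median was 0.091, while that of all genes went to -0.21. The part of overall brightness in the members' shift was not tested further.

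**Figure D2:**
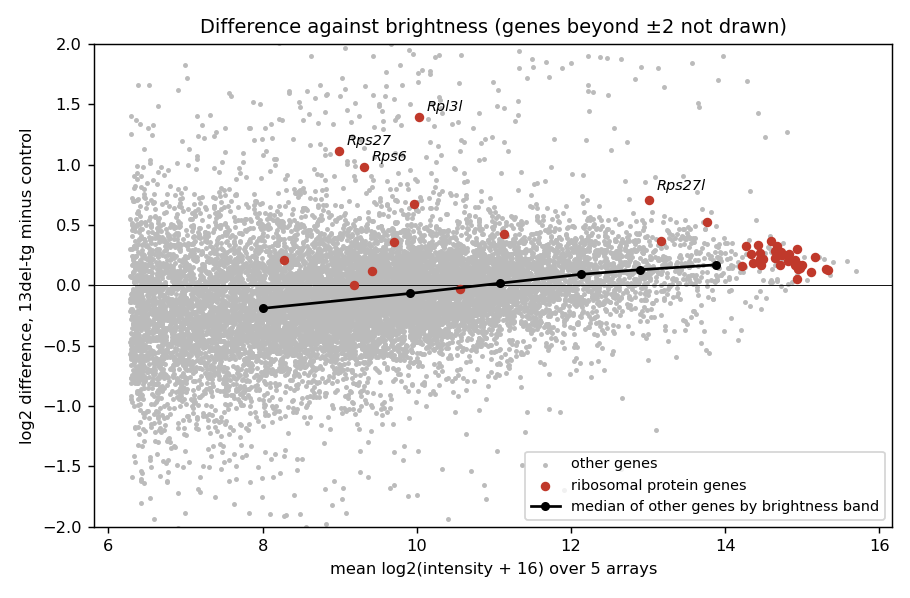
Each point is 1 gene, placed by its mean log2(intensity + 16) over the 5 distinct arrays and by its log2 difference, 13del-tg minus control, with ribosomal protein genes in red. The black line joins the medians of other genes in 6 bands of brightness, from -0.19 in the dimmest to 0.17 in the brightest, where most red points sit between 0.051 and 0.52.

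**Figure D3:**
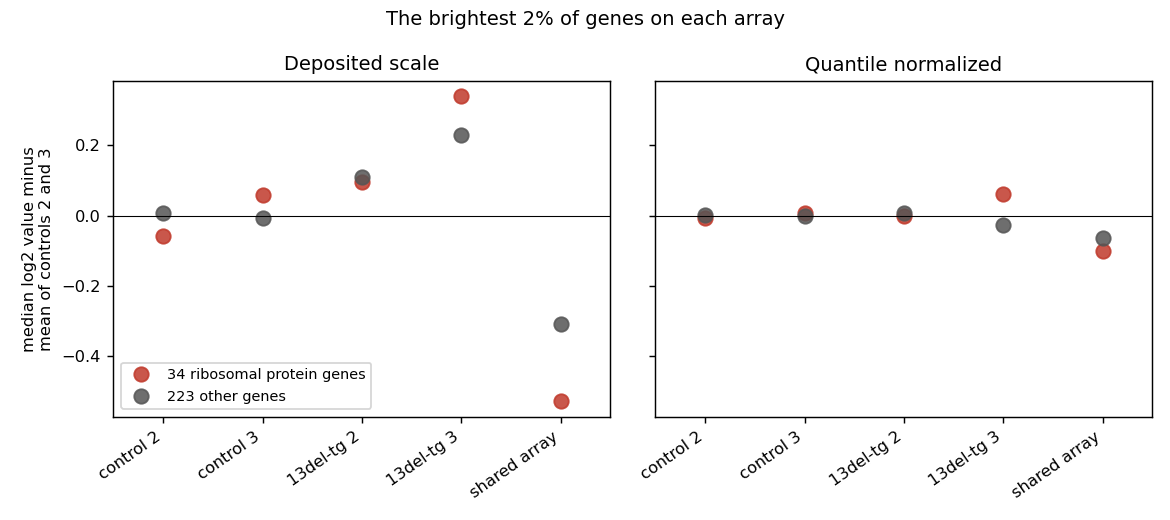
Median log2 value of the brightest 2% of genes on each array, relative to the mean of controls 2 and 3, for 34 ribosomal protein genes and 223 other genes, as deposited and after quantile normalization. On the deposited scale both sets are highest on 13del-tg 3 (0.34 and 0.23) and lowest on the shared array (-0.53 and -0.31), and after normalization all medians lie between -0.10 and 0.06.

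The stalk genes Rplp0 and Rplp2 both had positive differences on the deposited scale. Rplp0, which anchors the stalk, read 30610.5 and 29929.2 in controls 2 and 3, 34102.4 and 40616.7 in 13del-tg 2 and 3, and 23663.4 on the shared array. Both 13del-tg arrays were above both controls, by 0.30 on the log2 scale (SE 0.17, limma adjusted p = 0.718). Rplp2, one of the acidic stalk proteins, read 37887.9 and 37096 in the controls, 40934.3 and 39957.6 in 13del-tg, and 24198.7 on the shared array. Its arrays also did not overlap, but the difference was 0.11 (SE 0.16), and it turned to -0.088 after quantile normalization and to -0.031 with arrays levelled on other bright genes. In Rplp2, 13del-tg 2 rather than 13del-tg 3 was the highest array.

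Among the other large subunit genes, Rpl37 and Rpl11 were the 2 with an unadjusted p under 0.05. Rpl37, a zinc-binding protein read by a dim _x_at probe set, had intensities of 833.6 and 760.6 in controls 2 and 3, 1392.8 and 1179.2 in 13del-tg 2 and 3, and 864.3 on the shared array. The 2 groups were well apart, with the shared array near the controls. The difference was 0.68 (SE 0.21), a fold of 1.6, with an unadjusted limma p of 0.0145 and an adjusted p of 0.65. Rpl11, which with Rpl5 and 5S ribosomal RNA binds the p53 regulator MDM2 when ribosome assembly fails, read 14479.1 and 10686.7 in the controls, 16128.2 and 19809.2 in 13del-tg, and 10265.5 on the shared array. Its control arrays differed by more than control 2 and 13del-tg 2 did. The difference was 0.52 (SE 0.21, adjusted p = 0.715). An exact two-sided permutation test gave 0.333 for both genes, the smallest p that 2 arrays against 2 allow.

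Rpl38, which is known for its part in patterning the axial skeleton through translation of Hox mRNAs, read 36390 and 38061.8 in the controls, 41147.8 and 46581 in 13del-tg, and 25609.6 on the shared array. The groups were separate and the difference was 0.23 (SE 0.17, adjusted p = 0.741), equal to the family's median, and it turned to -0.023 with the shared array placed among the 13del-tg samples. Rpl22, an RNA-binding protein of the large subunit, had 3 measured probe sets with unlike differences. Its brightest probe set had 0.33 (SE 0.23), a dimmer one 0.033 and the third 0.97, with 5176.1 and 9459.9 in the controls and 10379.8 and 18196.8 in 13del-tg. For Rpl22l1, the paralogue of Rpl22 that falls outside the naming rule, the intensities were 11756.8 and 8623.1 in the controls, 12757.7 and 15213.6 in 13del-tg and 9485.5 on the shared array, a difference of 0.47 (SE 0.21, adjusted p = 0.715). Rpl27a (0.37, SE 0.18) and Rpl6 (0.26, SE 0.17) had separate groups, and Rpl4, Rpl41 and Rpl35 had separate groups at 0.14, 0.14 and 0.17. Rpl39, which lines the exit tunnel, had a difference of 0.007 (SE 0.28) by a dim probe set, with 461.8 and 669 in the controls against 639.6 and 488.1 in 13del-tg.

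In the small subunit the order of arrays differed between genes. Rps19, the gene most often mutated in Diamond-Blackfan anaemia, a failure of red cell formation, read 20125.2 and 18525.5 in the controls, 20849.8 and 28175.1 in 13del-tg, and 13874.6 on the shared array. 13del-tg 2 lay only just above control 2, and the difference was 0.33 (SE 0.20, adjusted p = 0.724). Rps20 had 0.37 (SE 0.18, adjusted p = 0.715), with 23899.5 and 22599.3 in the controls and 27047.5 and 33282.3 in 13del-tg, so that both 13del-tg arrays were higher. Rps14, whose loss causes the anaemia of the 5q deletion syndrome, had 0.21 (SE 0.17) with separate groups. Rps3, which sits at the mRNA entry site, had 0.28 (SE 0.23) with overlapping groups, and without 13del-tg 3 its difference was -0.015. Rpsa, also known as the laminin receptor, had 0.17 (SE 0.20) with overlapping groups and -0.039 without 13del-tg 3. In Rps28 and Rps29 the differences were 0.051 (SE 0.17) and 0.14 (SE 0.17), both with overlapping groups.

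Erythroid, B cell, chondrocyte and osteoclast markers and genes of dividing cells differed in the other direction on these arrays. All 7 measured erythroid markers were lower at the unadjusted threshold of 0.05 and 0 at the adjusted one. Their median was -2.11, and their summed intensity was 32217 to 32366 in the controls, 9563 to 15049 in 13del-tg and 23190 on the shared array. The 7 measured B cell markers had a median of -1.55, with summed intensities of 7710 to 8797 in the controls and 2311 to 4574 in 13del-tg. The 9 neutrophil markers had a median of -0.87, with 1 below both controls on both 13del-tg arrays and array medians of -1.59 in 13del-tg 2 and 0.15 in 13del-tg 3. The 7 macrophage markers had a median of -0.042, with 3 positive and 4 negative. All 8 chondrocyte markers were negative, with a median of -0.84. Their summed intensities were 30595 and 15680 in controls 2 and 3, 15411 and 6983 in 13del-tg 2 and 3, and 15581 on the shared array. All 8 osteoclast markers were negative too, with a median of -0.36 and array medians of -0.50 in 13del-tg 2, -0.16 in 13del-tg 3 and -0.57 on the shared array. The 8 measured pineal and photoreceptor markers had a median of -4.24, 3 of them past the adjusted threshold, with summed intensities of 4929 to 10327 in the controls, 438 to 471 in 13del-tg and 661 on the shared array. Of 22 proliferation genes all were negative, 14 with an unadjusted p under 0.05 and 0 past the adjusted threshold, with a median of -0.63. The osteoblast markers had a median of 0.15, with 5 positive and 2 negative, Sp7 at -0.22 and Alpl at -0.10. Their array medians were -0.073 and 0.073 in controls 2 and 3, 0.10 and 0.34 in 13del-tg 2 and 3 and -0.59 on the shared array. This was the same order of arrays as in the ribosomal protein genes. The 223 other genes of the brightest 2% were also highest on 13del-tg 3 (0.23) and lowest on the shared array (-0.31). The part of cell composition in the members' difference was not tested.

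Besides Rpl3l, which is described further below, the members that departed most from the common shift lay below the brightest 2% of genes. These were Rps6 and Rps27 with dim probe sets and Rps27l with a brighter one. Rps6, the S6 protein that S6 kinase phosphorylates, read 412.4 and 399.8 in the controls, 462.1 and 1440.1 in 13del-tg, and 819.7 on the shared array. The difference of 0.98 (SE 0.48, adjusted p = 0.715) therefore lay almost wholly in 13del-tg 3, and the shared array was above 13del-tg 2. Rps27, a zinc-finger protein of the small subunit, read 407.2 and 209.1 in the controls, 1112.4 and 381 in 13del-tg, and 789 on the shared array. Here 13del-tg 2 was high and 13del-tg 3 lay between the controls, with a difference of 1.12 (SE 0.52, adjusted p = 0.715). Rps27l, its paralogue and a p53-induced gene, read 6745 and 7005.2 in the controls, 7756.7 and 16292.7 in 13del-tg, and 6276.3 on the shared array. The difference was 0.71 (SE 0.33, adjusted p = 0.715) by its brightest probe set and 0.43 and 0.35 by the other two, and in all of them 13del-tg 3 was well above the other arrays. The list of 9 measured p53 response genes had a median of 0.13, with 6 positive and 3 negative, 0 of them at an unadjusted p under 0.05. Gtse1 had the smallest unadjusted limma p of that list, 0.0785, with a difference of -0.82 (SE 0.40). Ccng1, a p53 target in the same list, had 0.62 (SE 0.42), with -0.10 without control 3 and 1.33 without control 2. It read 3979 and 1467.5 in controls 2 and 3, 3866.2 and 3575.4 in 13del-tg 2 and 3, and 6727.5 on the shared array. In Rps10 the probe sets differed, and the brightest had 0.23 (SE 0.20). Another had 1.59, with 3094.2 and 2447.1 in the controls, 3712.5 in 13del-tg 2 and 18601.8 in 13del-tg 3. The remaining ones had 0.34, 0.41, 0.33 and, by a dim probe set, -0.20.

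Paralogues with restricted expression were unlike one another. Rpl3l replaces Rpl3 in skeletal and heart muscle ribosomes and had the widest spread of all members. Its intensity was 1358.1 and 137.9 in controls 2 and 3, 1616 and 880.9 in 13del-tg 2 and 3, and 4039.1 on the shared array, the highest of the 5. The groups overlapped, the difference was 1.40 (SE 0.90, adjusted p = 0.731), and it ran from -0.18 without control 3 to 2.97 without control 2, where Rpl3l passed the adjusted threshold as 1 of 182 genes that were higher, against 2 with all 4 arrays. The 12 skeletal muscle markers moved over the arrays in the same order at the extremes: relative to the mean of controls 2 and 3, their median was 1.58 in control 2, -1.58 in control 3, 1.81 in 13del-tg 2, 1.26 in 13del-tg 3 and 2.02 on the shared array. Their summed intensity was 30383 in control 3 and 184812 to 257795 on the other 4 arrays, none of the 12 markers was below the filter, and their part in the Rpl3l values was not tested. Rpl39l, a paralogue of Rpl39 best known from the testis, read 2261 and 2056.7 in the controls, 2555.1 and 3306.7 in 13del-tg and 1360.1 on the shared array, a difference of 0.43 (SE 0.21, adjusted p = 0.715) with separate groups. Rps4l, the one member with a negative difference, read 1873.3 and 1439.2 in the controls and 1702.3 and 1516.8 in 13del-tg, at -0.031 (SE 0.22), and Rps4x, its ubiquitous relative on the X chromosome, had 0.25 (SE 0.17) with separate groups.

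**Figure D4:**
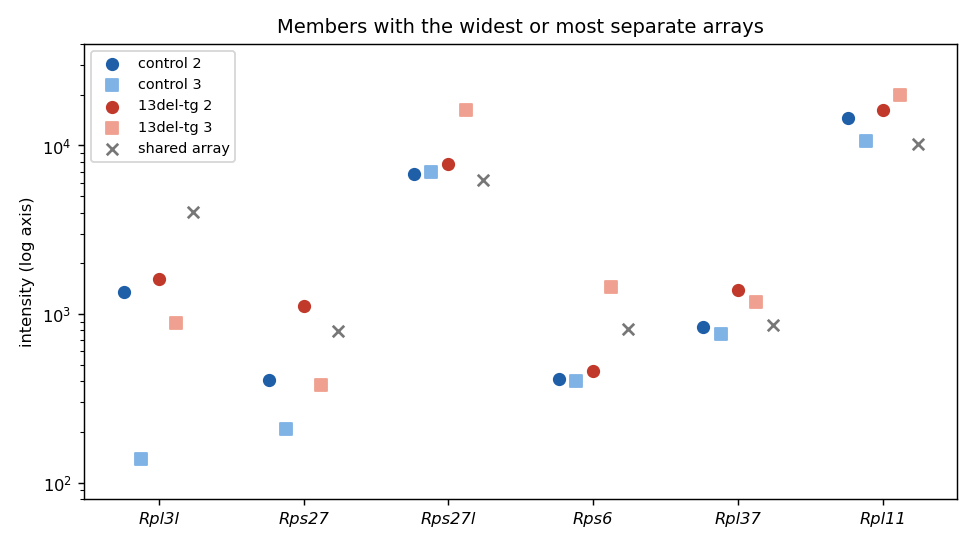
Intensity on a log axis for 6 members on the 5 distinct arrays. Rpl37 and Rpl11 have separate groups, Rps6 and Rps27l are high on 13del-tg 3, Rps27 is high on 13del-tg 2, and Rpl3l is lowest on control 3 (137.9) and highest on the shared array (4039.1).

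Several measured probe sets were present for 19 of the 47 genes, and for 5 genes their differences were of opposite sign. Over all 91 measured member probe sets the median was 0.25, with 85 positive and 6 negative. The 103 measured probe sets that name a ribosomal protein together with another symbol, and so stand for no single gene here, had a median of 0.22, with 94 positive and 9 negative, and -0.45 on the shared array. The medians were thus alike in the probe sets that the naming rule took and left out.

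Genes that work with the ribosome were compared from lists drawn up with earlier results of these data known. The translation factors whose mRNAs also start with a TOP stretch, or are often counted with them, had 22 of 28 positive and a median of 0.18, with 0 past the adjusted threshold and 0 at an unadjusted p under 0.05 in either direction. Their array medians were -0.032 and 0.032 in controls 2 and 3, 0.057 and 0.26 in 13del-tg 2 and 3 and -0.30 on the shared array. This was the same order as in the ribosomal proteins, and the 223 other genes of the brightest 2% had the same highest and lowest arrays. Eef1b2, an exchange factor of elongation, had 0.44 (SE 0.20, adjusted p = 0.715), and Btf3, which with Naca binds nascent chains, 0.29 (SE 0.18). Fau, whose product is cleaved to ribosomal protein S30, had 0.32 (SE 0.20) and separate groups.

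Mitochondrial ribosomal proteins, which serve the separate ribosomes of mitochondria, had 64 of 76 positive and a median of 0.22, with 1 higher at an unadjusted p under 0.05 and 0 past the adjusted threshold. Their arrays were ordered differently. The medians were 0.12 and -0.12 in controls 2 and 3, 0.11 and 0.32 in 13del-tg 2 and 3 and 0.25 on the shared array, so that 13del-tg 2 did not exceed control 2 and the shared array was above both controls. Mrps21 had the smallest unadjusted p of that list, with 0.61 (SE 0.25), and Mrpl12 followed with 0.49 (SE 0.21).

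For the machinery that builds ribosomes the medians were near 0 or split between arrays. Of 47 assembly factors 28 were positive and 19 negative, with a median of 0.033 and array medians between -0.016 and 0.052, and 0 had an unadjusted p under 0.05. Ebna1bp2, needed for large subunit assembly, had 0.49 (SE 0.22) and Utp20, of the small subunit processome, -0.50 (SE 0.31). Of 15 RNA polymerase I and rRNA transcription genes 9 were positive and 6 negative, with a median of 0.18, which came from 13del-tg 3 at 0.20 while 13del-tg 2 was at -0.005 and the shared array at 0.14. Polr1a, the largest catalytic subunit of RNA polymerase I, had -0.43 (SE 0.23), and Taf1d, of its promoter factor, 0.52 (SE 0.25). The list of mTORC1, S6 kinase and MYC genes had 5 of 19 positive and a median of -0.069, with 1 higher at an unadjusted p under 0.05. That gene was Eif4ebp1, a translation repressor controlled by mTORC1, with 3617.7 and 2727.1 in the controls, 4485.9 and 5510 in 13del-tg and 3638.5 on the shared array, a difference of 0.66 (SE 0.22, adjusted p = 0.697). Myc itself had -0.28 (SE 0.21), and Mlst8, of the same list, -0.83 (SE 0.46). No difference between any of these lists and the ribosomal proteins was tested.

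**Figure D5:**
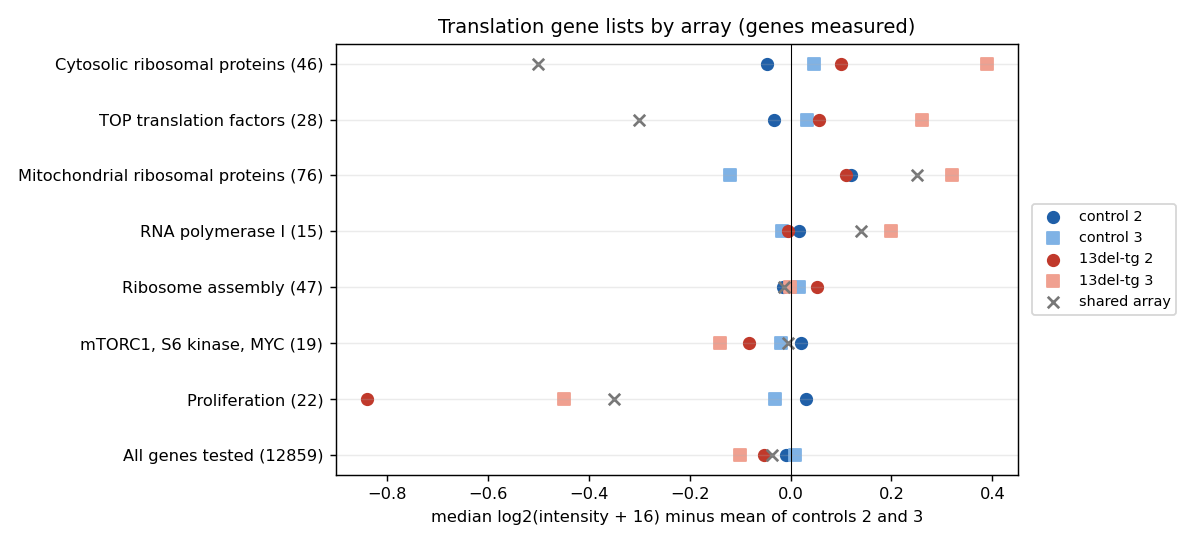
Median over each gene list of log2(intensity + 16) minus the mean of controls 2 and 3, with 1 mark per array and the number of measured genes in brackets. The cytosolic ribosomal proteins and TOP translation factors are highest on 13del-tg 3 (0.39 and 0.26) and lowest on the shared array (-0.50 and -0.30), whereas the assembly factors stay between -0.016 and 0.052 and proliferation genes are lowest on 13del-tg 2 (-0.84).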

How the data were processed

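The authors deposited linear intensities, 1 per probe set and sample, made with MAS5 per the submitters' processing notes; no version is given in the sources used here. With the lowest and highest 2% of values left out, the mean of each array was 500.003, a common level set before deposit. Scan dates and detection calls were not used here. The number of arrays, 2 per group, limits the precision, and the labels say of the replicates only that they are biological, so p-values measure the spread between these samples, which may be partly technical.

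Values were transformed as log2(intensity + 16) with no further scaling. The 64 control probe sets were left out, and a probe set was kept if its log2 mean across the 5 distinct arrays reached the 40th percentile (6.28, an intensity of 61.9). Of the others, 34945 had 1 symbol in the platform annotation, 932 several and 9160 none, and 34741 matched RefSeq by gene number. The brightest kept probe set stood for a gene, giving 12859 genes. These were fitted together in limma 3.58.1 under R 4.3.3, with moderated variances that follow a trend in signal, and two-sided p-values were adjusted over all genes by Benjamini-Hochberg. The fit had 2 residual and 5.01 prior degrees of freedom and a median standard error of 0.26. The script was tested on simulated data. Folds on this scale understate changes of dim genes.

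Members and lists were chosen with earlier results of these data known. Named genes are the 8 members with the smallest unadjusted p in each direction, members and paralogues chosen for their role, the 3 genes with the smallest unadjusted p of each related list, and Col10a1; other members are named after their values were seen. Start sequences are from RefSeq.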

Additional observations from a re-analysis of the deposited data

Results flagged for a closer look

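The shared array, which enters no comparison, had an Rpl3l intensity of 4039.1, against 1358.1 and 137.9 in controls 2 and 3. This was more than 1 above the higher control on the log2 scale and above both 13del-tg arrays, and Rpl3l was the one member for which that held.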

How the results depend on the processing

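The member median of 0.23 was compared with the spread of the array medians (pooled SD 0.15) and moved by more with quantile normalization (0.055), arrays centred on the median (0.41, when the median of all genes went from -0.074 to 0.11), 13del-tg replicate 2 left out (0.39), the shared array counted as a control alone (0.40) and as a 13del-tg alone (-0.0026; large subunit -0.0026, small subunit -0.007). Leaving out 1 array in turn gave medians of 0.10 to 0.39, with 26 to 41 members higher and 0 to 3 lower without overlap. Each such fit leaves 1 array in a group, assumed to vary like the others. Groups separate more easily for any gene when 1 of them holds 1 array. The share of all genes without overlap was not computed for these fits, so their member counts cannot be set against it. The count of members higher at an unadjusted limma p under 0.05 was 1 with no filter, without the eBayes trend and with levelling on bright non-ribosomal genes. Over all genes of each fit it was 265, 149 and 103. For the members it was 4 with centring or the shared array counted as a control, and 0 with it under both labels. Over all genes of these fits it was 437, 150 and 17. Member counts without overlap were 11 higher and 2 lower after quantile normalization, and 40 higher with centring. They were 2 and 0 higher with the shared array counted as a 13del-tg alone or under both labels. With levelling 7 were higher, and without _x_at and _s_at probe sets 1 was lower. The shares of all genes without overlap were not computed for these settings. The replicate block gave 8 members higher at an unadjusted p and 4 past the adjusted threshold (Rps27l, Rps27, Rps6 and Rpl3l), while over all genes it gave 669 higher at an unadjusted p and 271 higher and 338 lower past the adjusted threshold, against 191, 2 and 6 without it. Eif4ebp1 (limma adjusted p = 0.0291) and, as lower, Mki67 (2.06e-05), Rrm2 (4e-05) and Aurka (0.00129) also passed under the block. Same-numbered arrays share only a number, and their deviations correlated at 0.273 over genes. Signs turned for Rps4l with centring (0.15), without control replicate 2 (0.16), without 13del-tg replicate 3 (0.051) and with the shared array a control (0.18). For Rpl39 they turned without control replicate 2 (-0.25), without 13del-tg replicate 2 (-0.18), with the shared array a control (-0.035) and with levelling (-0.13). With the shared array a 13del-tg, Rplp2 had -0.14, Rpsa -0.081, Rps14 -0.045 and Rpl38 -0.023; after quantile normalization Rplp2 had -0.088, Rpsa -0.02 and Rps14 -0.0037. Rplp2 had -0.031 with levelling, Rpsa -0.039 and Rps3 -0.015 without 13del-tg replicate 3, and Rpl3l -0.18 and Ccng1 -0.10 without control replicate 3. Polr2e, of the RNA polymerase I list, had 0.35 and turned to -0.14 with the mean of its probe sets and -0.63 without _x_at and _s_at ones. Over the fits without 1 array, Rps4l ran from -0.22 to 0.16, Rpl39 from -0.25 to 0.27, Rpsa from -0.039 to 0.38, Rps3 from -0.015 to 0.58, Rpl3l from -0.18 to 2.97 and Ccng1 from -0.10 to 1.33. The causes were not tested. The median stayed at 0.23 with Rpl22l1, Rpl7l1 and Fau added. Low signal limits Rpl12, Rpl14, Rpl37, Rpl39, Rps25, Rps27 and Rps6 more than the bright members.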
